A study of Mus musculus with 4 samples.

Results

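The step from neural progenitor cell (NPC) to early neuroblast (NB1) in the adult mouse dentate gyrus was followed in single-nucleus RNA sequencing data, with each nucleus placed by the cluster label that the authors deposited for it. Of 14367 nuclei, 211 were labelled NPC and 2578 NB1. The comparison used the 3 libraries in which both clusters held at least 10 nuclei. Library w1 held 112 NPC and 1492 NB1 nuclei, w2 held 75 and 956, and w4 held 22 and 130, together 2787 nuclei. Library w8 held 2 NPC nuclei and entered no comparison.

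All mice carried a tamoxifen-inducible Cre driver of stem and progenitor cells and the reporter CAGfloxStopSun1sfGFP on a C57BL/6J background and were 6 to 8 weeks old. Tamoxifen switched on Sun1-sfGFP, a green fluorescent protein fixed to the nuclear membrane, in cells in which the driver was active and in their progeny, and w1, w2 and w4 name the dentate gyri taken 1, 2 and 4 weeks later. Each library was a single pool of 4 left dentate gyri from male and female mice, sorted for the fluorescent nuclei. NPC and NB1 were therefore compared within the same pool. The spread behind each test is how far their difference varied over 3 pools of different times, not between animals.

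In the adult dentate gyrus, radial glia-like stem cells (RGL) give rise to NPCs, which divide a few times, leave the cell cycle and become neuroblasts that mature into glutamatergic granule cells. A cell that will divide first makes the proteins that copy DNA, under the E2F transcription factors, and then those that condense and separate chromosomes. In resting cells the genes of the later phase are held silent by the DREAM complex, which binds the cell cycle genes homology region (CHR) of their promoters, often close to CCAAT boxes. A newborn neuron has to build an axon and dendrites, find its partners and assemble synapses and excitable membrane.

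Raw counts of unique molecular identifiers (UMIs, one per captured RNA molecule) were summed per library and cluster. The NPC sums held 499011 UMIs in w1, 324601 in w2 and 76298 in w4, and the NB1 sums 6364115, 4087892 and 446317. Levels are given as UMI counts scaled to the total of a sum (CPM, counts per 1e6 UMIs), always in the order w1, w2, w4. In the w4 NPC sum a single UMI was worth 13.1 CPM, the value of Slit3 there, so low NPC levels are coarse. Median UMIs per nucleus were close within each library, at 4491 in NPC and 4064 in NB1 of w1, 4235 and 4171 in w2, and 3284.5 and 3308.5 in w4. Nuclei of at least 2000 UMIs were also thinned to 2000. Thinned NPC nuclei showed a median of 1302, 1366 and 1321.5 genes and NB1 nuclei 1220, 1272 and 1238. Thinning left out the shallower nuclei, 88 NB1 and 5 NPC nuclei of w1 and 4 NB1 nuclei of w2. No cell barcode was shared between NPC or NB1 nuclei of different libraries.

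The promoters of 6 genes that fell at this step are printed as examples, and each of them holds the marked elements. Promoters of the cell-cycle genes often held such elements, which played no part in calling the genes. The shares over whole lists, given below, count promoters with and without them. Each run is 300 bases, 250 before to 50 after the annotated start, from RefSeq on GRCm38.p6, written 5′ to 3′ on the strand of the gene. For the mitotic genes Top2a (chr11:99024140-99024439, minus strand), Mki67 (chr7:135716330-135716629, minus strand) and Kif11 (chr19:37376132-37376431, plus strand), capitals mark the CHR element TTTGAA and the CCAAT box on either strand.
Top2a: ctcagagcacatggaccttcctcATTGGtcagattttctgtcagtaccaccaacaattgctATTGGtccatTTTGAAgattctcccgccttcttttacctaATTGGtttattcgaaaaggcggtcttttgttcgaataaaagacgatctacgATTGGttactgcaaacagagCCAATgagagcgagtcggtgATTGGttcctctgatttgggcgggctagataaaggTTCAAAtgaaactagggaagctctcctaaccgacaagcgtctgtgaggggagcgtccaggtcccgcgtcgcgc
Mki67: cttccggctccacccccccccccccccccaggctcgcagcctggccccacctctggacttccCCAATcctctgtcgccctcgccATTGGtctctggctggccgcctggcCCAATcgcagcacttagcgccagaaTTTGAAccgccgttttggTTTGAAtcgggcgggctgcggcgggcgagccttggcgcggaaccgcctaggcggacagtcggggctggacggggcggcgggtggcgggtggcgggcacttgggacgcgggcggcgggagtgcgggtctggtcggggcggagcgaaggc
Kif11: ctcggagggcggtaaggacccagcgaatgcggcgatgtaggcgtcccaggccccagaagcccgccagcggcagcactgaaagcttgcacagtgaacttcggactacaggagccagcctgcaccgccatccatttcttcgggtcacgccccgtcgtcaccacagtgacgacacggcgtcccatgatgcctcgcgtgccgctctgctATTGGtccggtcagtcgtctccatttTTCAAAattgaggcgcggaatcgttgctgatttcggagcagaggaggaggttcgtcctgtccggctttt

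For the replication genes Mcm5 (chr8:75109259-75109558, plus strand) and Mcm6 (chr1:128359656-128359955, minus strand) and for the cell-cycle factor E2f7 (chr10:110745189-110745488, plus strand), capitals mark the E2F elements TTTGGCG and TTCCCGC and the CCAAT box on either strand.
Mcm5: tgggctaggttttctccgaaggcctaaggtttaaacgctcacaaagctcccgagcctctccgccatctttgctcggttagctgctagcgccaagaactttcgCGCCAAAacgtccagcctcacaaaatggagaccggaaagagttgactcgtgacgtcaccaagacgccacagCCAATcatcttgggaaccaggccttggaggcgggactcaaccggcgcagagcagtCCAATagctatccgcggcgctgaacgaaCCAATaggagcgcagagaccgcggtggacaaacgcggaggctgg
Mcm6: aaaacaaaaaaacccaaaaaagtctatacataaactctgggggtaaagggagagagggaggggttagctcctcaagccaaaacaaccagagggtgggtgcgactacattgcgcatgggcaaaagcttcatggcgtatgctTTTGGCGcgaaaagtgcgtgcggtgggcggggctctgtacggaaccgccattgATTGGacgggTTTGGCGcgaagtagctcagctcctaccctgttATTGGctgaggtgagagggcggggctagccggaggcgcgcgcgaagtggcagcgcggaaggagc
E2f7: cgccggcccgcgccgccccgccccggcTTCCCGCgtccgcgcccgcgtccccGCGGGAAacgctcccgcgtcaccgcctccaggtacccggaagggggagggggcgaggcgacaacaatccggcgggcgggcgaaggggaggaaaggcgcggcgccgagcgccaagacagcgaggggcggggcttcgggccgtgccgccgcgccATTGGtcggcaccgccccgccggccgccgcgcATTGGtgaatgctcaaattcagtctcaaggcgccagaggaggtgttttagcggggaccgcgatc

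The Top2a promoter held 2 CHR elements and 6 CCAAT boxes, that of Mki67 2 and 3, and that of Kif11 1 of each. Mcm5 had 1 TTTGGCG and Mcm6 had 2, and E2f7 had 2 TTCCCGC. Across the list of spindle and cytokinesis genes, 37 of 59 promoters (62.7%) held a CHR element, against 18.1% of all 27025 RefSeq promoters and 10.9% of the 5912 promoters of genes tested. A CHR element together with a CCAAT box was present in 49.2% of the spindle promoters and in 7.12% of all promoters. The E2F elements had their largest shares among these lists in replication: 14 of 24 origin licensing promoters (58.3%) and 15 of 31 replication fork promoters (48.4%) held at least 1 of them, against 22.0% of spindle promoters, 6.07% of all and 11.8% of those of genes tested, while the CHR share was 20.8% and 6.45% in the licensing and fork lists. The cyclin, kinase and E2F factor list held both, with a CHR share of 36.4% and an E2F share of 30.3%. Over all genes that fell, 20.2% of 1135 promoters held an E2F element, and over all that rose 8.11% of 1024. An E-box of the neurogenic bHLH factors, CAGATG, differed little between genes that rose (12.2%) and fell (11.5%), as did the Sox element ACAAAG (13.5% and 13.8%). A match is a description of these letters in this window and no evidence of binding.

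**Figure D1:**
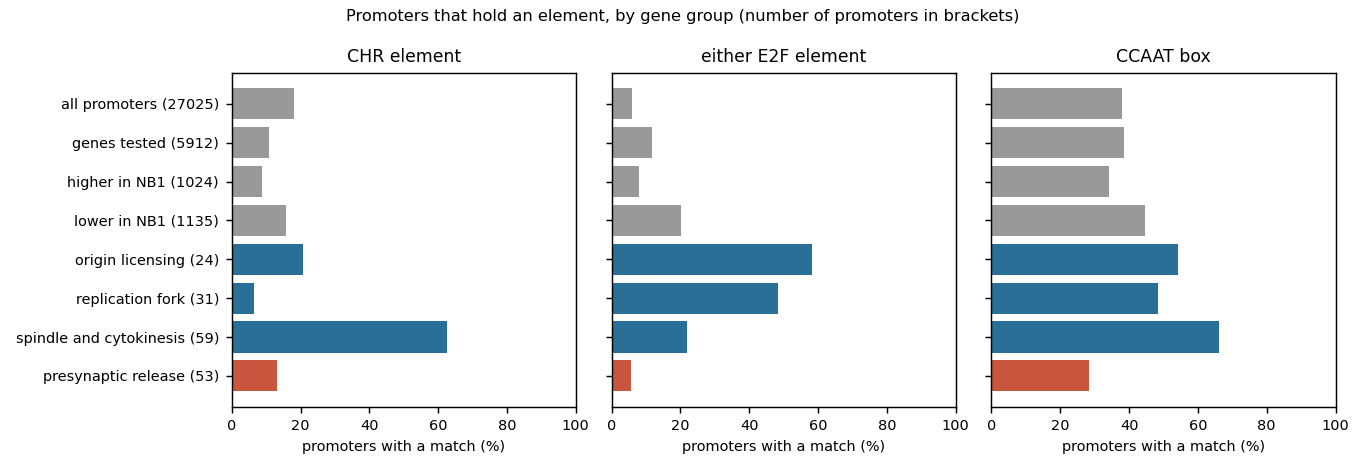
Share of 300-base promoters (horizontal axes, %) that hold a CHR element, either E2F element or a CCAAT box on either strand, for all promoters, the genes tested, the genes called in each direction and 4 gene lists (number of promoters in brackets). The CHR share reaches 62.7% in the spindle list and 6.45% in the replication fork list, and the E2F share 22.0% and 48.4%.

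The change was broad and went both ways. Of 7827 genes tested with edgeR's quasi-likelihood test, with the library as a term, 2889 (36.9%) differed between NPC and NB1 by at least 1.5-fold at an adjusted p of at most 0.05. NB1 was higher for 1403 of them (17.9%) and lower for 1486 (19.0%), and the median log2 fold change over all genes tested was 0.01. In 2658 of the 2889 the direction was the same in each of the 3 libraries. These calls measure the size of the step against how far it varied between libraries. The clusters had been drawn from the same expression values, so the calls are not independent evidence that the clusters differ.

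**Figure D2:**
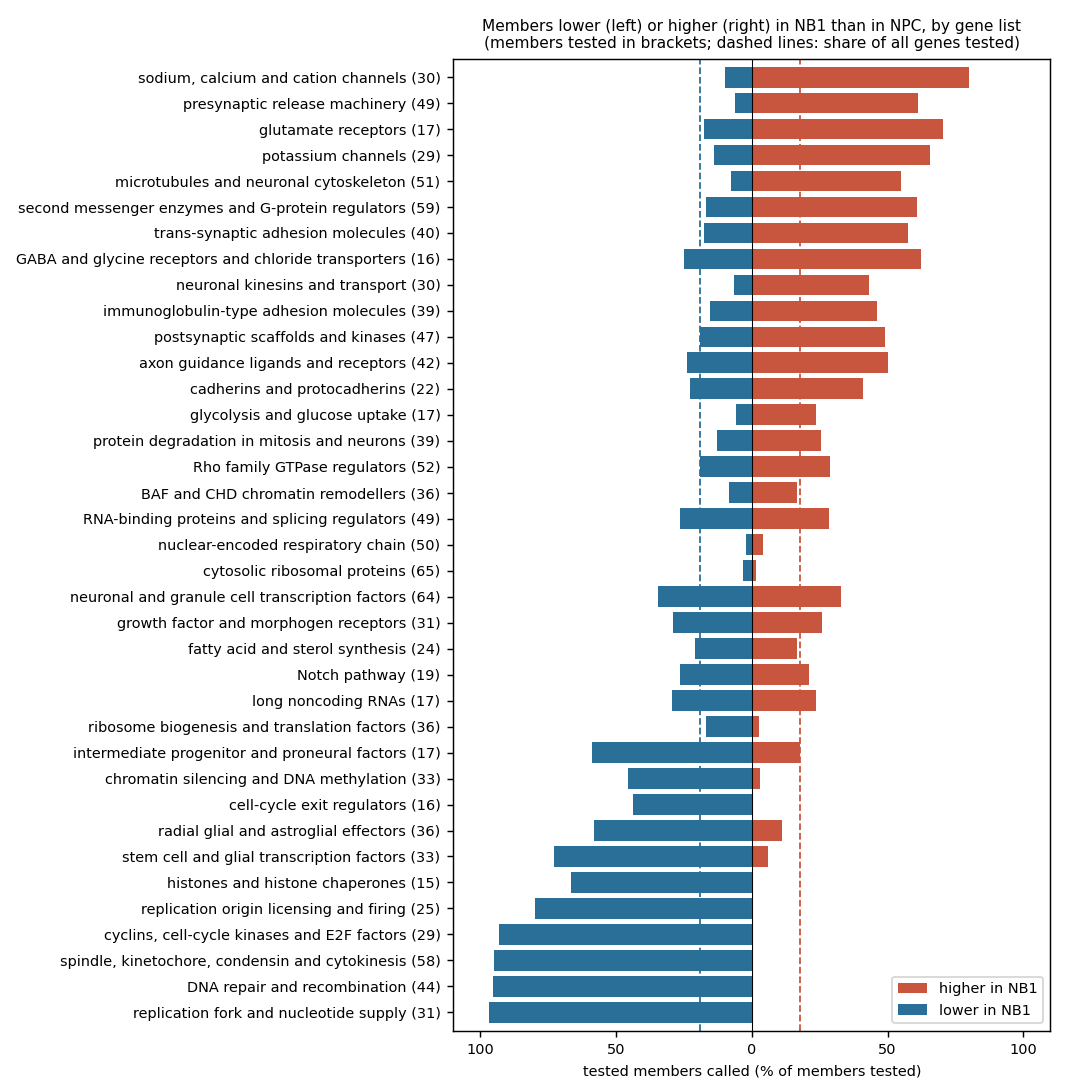
Share of tested members that were lower (left, blue) or higher (right, red) in NB1 than in NPC, for each of 37 gene lists (tested members in brackets; horizontal axis, %). Dashed lines mark the share of all genes tested, 19.0% lower and 17.9% higher; replication, repair and mitosis lists lie at the bottom with 80.0% to 96.8% lower, and channel, receptor and release lists at the top.

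Genome duplication and cell division were lost almost throughout. Among origin licensing and firing factors, which load and start the replicative helicase, 20 of 25 tested members fell (30 listed; median log2 fold change −2.24). At the replication fork and in nucleotide supply it was 30 of 31 (37 listed; median −2.44), in DNA repair and recombination 42 of 44 (49 listed; median −2.19), among cyclins, cell-cycle kinases and E2F factors 27 of 29 (45 listed; median −2.94), and among spindle, kinetochore, condensin and cytokinesis genes 55 of 58 (72 listed; median −4.02). No tested member of these 5 lists rose. The remaining cyclin and kinase members, Cdk4 and Ccnd3, did not pass the test; they were named after their values had been seen.

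Several of these genes were nearly silent in NB1. Top2a, the topoisomerase that untangles sister DNA strands, stood at 405, 471 and 734 CPM in NPC and at 0.314, 1.71 and 0 CPM in NB1. Neil3, a DNA glycosylase of crosslink repair, stood at 269, 237 and 406 CPM and then at 0.314, 0 and 0 CPM. The groups lay far apart in every library, and the pooled Neil3 ratio of 1465 rests on 2 NB1 UMIs (95% counting interval 401 to 12169). Iqgap3, a cytokinesis scaffold, had 60.1, 52.4 and 91.7 CPM in NPC and no UMI in any NB1 sum, which is at least 218-fold lower with a floor of 3 UMIs over the pooled NB1 nuclei. Cdk1, the kinase that starts mitosis, was too sparse to be tested, with 20 UMIs over the NPC sums and 0 over those of NB1, at least 80.7-fold lower.

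Genes of DNA replication differed in how much RNA was left in NB1. Clspn (claspin), which guards stalled forks, fell from 148, 145 and 288 CPM to 1.26, 0.978 and 0 CPM. Mcm6, a subunit of the replicative helicase, had 216, 231 and 262 CPM in NPC and 13.5, 17.6 and 15.7 CPM in NB1 (log2 fold change −3.71, SE 0.20). Pola1, the catalytic subunit of DNA polymerase alpha, had 1000, 792 and 996 CPM and then 154, 141 and 155 CPM (−2.44, SE 0.14). Clspn was highest in the w4 NPC sum, and the Mcm6 and Pola1 groups lay apart in every library. Ccnd2, the D-type cyclin of neural progenitors, fell from 834, 739 and 550 CPM to 46.2, 45.5 and 56 CPM (−3.82, SE 0.17), and its partner kinase Cdk6 from 1401, 795 and 813 CPM to 146, 117 and 166 CPM (−2.71, SE 0.16). E2f7, a repressor among the E2F factors, fell from 124, 64.7 and 65.5 CPM to 0.786, 0.978 and 0 CPM.

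Every called member of these 5 lists was also higher in NPC than in RGL. The spindle list summed to 1150, 1024 and 961.5 CPM in RGL, 6954, 6790 and 9961 CPM in NPC and 1143, 1181 and 1102 CPM in NB1. NB1 thus stood close to RGL and to GCimm1, the first immature granule cell stage, at 960.2, 976.3 and 850.0 CPM. Of 16 tested cell-cycle exit regulators, genes that restrain the cycle, 0 were called higher in NB1 and 7 lower (32 listed), among them the kinase inhibitor Cdkn2c (26.1, 40 and 52.4 to 5.34, 2.2 and 0 CPM) and the pocket protein Rbl1 (144, 188 and 249 to 15.6, 8.56 and 8.96 CPM). Cdkn1b, the inhibitor p27, had 52.1, 61.6 and 52.4 CPM in NPC and 42.9, 40.1 and 56 CPM in NB1 (log2 fold change −0.20, SE 0.25, adjusted p = 0.57, edgeR). Without w1 the exit list had 4 members lower.

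Fewer members passed under other ways of counting. With nuclei of at least 2000 UMIs thinned to 2000, the filter left 5155 genes rather than 7827, so a member could drop out untested. There 33 spindle members, 13 cyclin, kinase and E2F members and 11 licensing members were called lower. With limma on the mean log2 expression per nucleus these were 4, 3 and 1, with 4 at the replication fork and 3 in DNA repair. The 1.5-fold threshold was applied there to means of log2 values per nucleus, so the limma counts are not like for like.

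**Figure D3:**
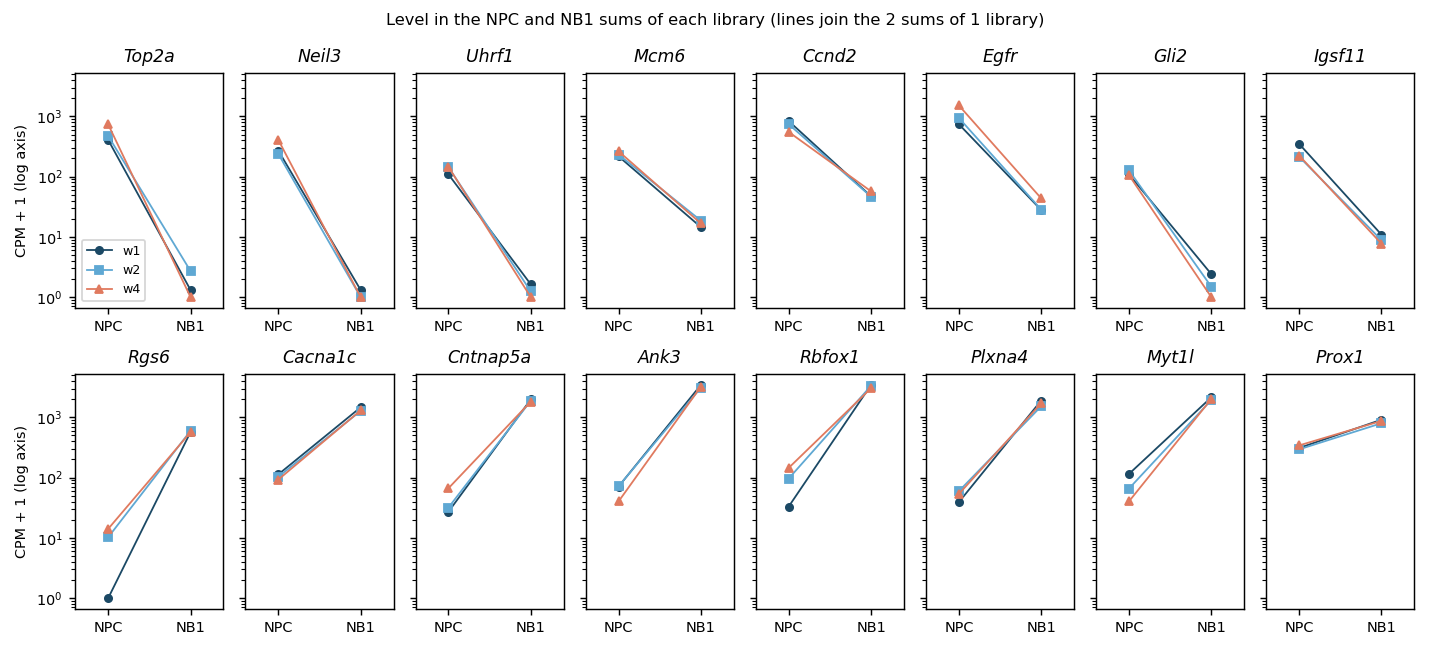
Level of 16 genes in the NPC and NB1 sums of each library (CPM plus 1, log axis; points are single sums and lines join both sums of a library, w1, w2 and w4). Genes of the upper row fall and those of the lower row rise in each library, with Top2a reaching 0 CPM in the w4 NB1 sum.

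Chromatin machinery changed unevenly. Of 33 tested genes of silencing and DNA methylation 15 fell and 1 rose. Uhrf1, which guides maintenance methylation to newly copied DNA, went from 108, 142 and 144 CPM to 0.629, 0.245 and 0 CPM, and its partner methyltransferase Dnmt1 from 126, 95.5 and 118 CPM to 28.1, 32.8 and 17.9 CPM. Ezh2, the Polycomb methyltransferase, fell by a smaller factor, from 599, 613 and 721 CPM to 252, 270 and 251 CPM (log2 fold change −1.10, SE 0.14). The member that rose was Tet1, a 5-methylcytosine oxidase, at 70.1, 95.5 and 26.2 CPM in NPC and 113, 116 and 91.9 CPM in NB1, and it was not called without w1 or with DESeq2. It was named after its values had been seen.

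The BAF remodelling complex exchanges several subunits when progenitors become neurons. The progenitor subunit Actl6a fell (92.2, 114 and 131 to 52, 52.3 and 69.5 CPM; log2 fold change −0.78, SE 0.21) and its neuronal counterpart Actl6b rose (12, 30.8 and 39.3 to 67.6, 82.9 and 58.3 CPM; 1.93, SE 0.32). Dpf3, a subunit of the neuronal form, rose most in this list, from 52.1, 18.5 and 39.3 CPM to 634, 540 and 417 CPM (4.09, SE 0.23). Dpf1 and Ss18l1, the other neuronal subunits, rose by 0.97 (SE 0.38) and 0.79 (SE 0.32) on the log2 scale. Dpf1 was lower in the NB1 sum of w4, at 20.2 against 26.2 CPM. Without w1 or w2 neither passed (Dpf1 0.73 and 0.96, Ss18l1 0.59 and 1.01), Ss18l1 also missed the threshold without w4 (0.81), and Actl6a did not pass without w2 (−0.68). Chd7, a remodeller of neural stem and progenitor cells, fell from 1397, 1211 and 1022 CPM to 294, 273 and 332 CPM. Over the whole list of BAF and CHD genes, 6 of 36 rose (16.7%) and 3 fell (8.33%), close to or below the share among all genes tested, and without w2 these were 3 and 1.

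Stem cell and radial glial genes were the second group to fall. Of 33 tested transcription factors of neural stem cells and glia 24 fell and 2 rose (55 listed; median log2 fold change −2.22). The list summed to 17078, 14556 and 15885 CPM in NPC and still to 12363, 10354 and 11440 CPM in NB1. Gli2, an effector of hedgehog signalling, had 108, 126 and 105 CPM in NPC and 1.41, 0.489 and 0 CPM in NB1. Sox6 fell from 1359, 841 and 865 CPM to 137, 96.6 and 103 CPM, and the orphan receptor Nr2e1 (Tlx), which maintains neural stem cells, from 30.1, 52.4 and 26.2 CPM to 1.41, 2.69 and 0 CPM. Sox2 had no UMI in any cluster here and is not described.

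Among radial glial and astroglial effectors 21 of 36 tested members fell and 4 rose (55 listed), and 19 of the 21 had been higher still in RGL. The list summed to 48734, 39724 and 43188 CPM in RGL, 20152, 17702 and 20997 CPM in NPC and 5952, 5923 and 5796 CPM in NB1, a stepwise fall in each library that differs from the rise and fall of the cell-cycle genes. Slc1a3, the glutamate transporter GLAST, fell from 1747, 1611 and 1638 CPM to 315, 227 and 264 CPM (log2 fold change −2.46, SE 0.14). Ptprz1, a receptor phosphatase of radial glia, fell from 2244, 2021 and 2870 CPM to 261, 228 and 242 CPM, and Tnc, the matrix protein tenascin-C, from 40.1, 70.9 and 91.7 CPM to 1.89, 0.489 and 2.24 CPM.

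Receptors for growth and niche signals changed in both directions. Egfr, the epidermal growth factor receptor of activated progenitors, fell from 741, 940 and 1520 CPM to 26.9, 27.4 and 42.6 CPM (log2 fold change −4.79, SE 0.16). Fgfr3 fell from 50.1, 24.6 and 52.4 CPM to 1.73, 3.18 and 2.24 CPM, whereas Fgfr1 rose from 130, 114 and 170 CPM to 578, 556 and 475 CPM (2.27, SE 0.18). Ntrk3, the neurotrophin-3 receptor, rose from 20, 27.7 and 52.4 CPM to 625, 666 and 627 CPM (4.79, SE 0.24). Gfra2, a co-receptor of the neurturin family, had 0, 6.16 and 0 CPM in NPC and 127, 105 and 157 CPM in NB1, a pooled ratio of 54 on 2 NPC UMIs (95% counting interval 14.9 to 446). Over the list 8 of 31 tested receptors and regulators rose (25.8%) and 9 fell, against 17.9% and 19.0% of all genes tested, and without w4 the latter number was 14. Of 19 tested Notch pathway genes 4 rose (21.1%) and 5 fell (26.3%), and without w4 the latter number was 9. Without w4 the filter left 12297 genes rather than 7827, so the counts without w4 can include members not tested with all libraries. The receptors Notch1 (166, 114 and 210 to 14.3, 8.32 and 13.4 CPM) and Notch2 and the ligand Dll1 fell, while the effector Rbpj had a log2 fold change of −0.31 (SE 0.17, adjusted p = 0.17, edgeR).

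The transient programme of intermediate progenitors was mostly lost, with 10 of 17 tested members lower and 3 higher (28 listed). Eomes (Tbr2), its defining factor, fell from 267, 200 and 78.6 CPM to 39.8, 27.6 and 44.8 CPM (log2 fold change −2.45, SE 0.22), Neurog2 from 60.1, 67.8 and 65.5 CPM to 6.13, 7.58 and 2.24 CPM, and Insm1 from 44.1, 52.4 and 39.3 CPM to 4.09, 3.91 and 4.48 CPM. All 10 had been higher in NPC than in RGL. The 3 that rose were Igfbpl1, the neuropeptide gene Tac2 and the somatostatin receptor Sstr2, the last named after its values had been seen. Igfbpl1 was not called without w4 (0.50) and Tac2 not without w1 (1.06).

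Neuronal transcription factors turned over rather than rising together: 21 of 64 tested members rose and 22 fell (83 listed). These shares were 32.8% and 34.4%, against 17.9% and 19.0% of all genes tested. Myt1l, which represses non-neuronal genes, rose from 114, 64.7 and 39.3 CPM to 2149, 1938 and 2017 CPM (log2 fold change 4.76, SE 0.20). Prox1, the factor of granule cell identity, was already at 309, 293 and 341 CPM in NPC and rose to 912, 797 and 872 CPM (1.66, SE 0.15). Neurod2 went from 0, 9.24 and 26.2 CPM to 77.6, 91.2 and 91.9 CPM and Bcl11b (Ctip2) from 6.01, 21.6 and 52.4 CPM to 68.4, 91.2 and 87.4 CPM. Dach1 and Tshz2 fell, the former from 1052, 693 and 446 CPM to 55.5, 42.1 and 87.4 CPM. Zbtb20, a hippocampal factor, stood near 12000 to 15500 CPM on both sides and did not pass (log2 fold change 0.27, SE 0.12, adjusted p = 0.085, edgeR).

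RNA-binding proteins also changed members within families. Of 49 tested, 14 rose (28.6%) and 13 fell (26.5%), against 17.9% and 19.0% of all genes tested. Those that fell were 8 without w1 and 7 without w2. Within the neuronal Elavl family, Elavl4 fell from 786, 678 and 616 CPM to 164, 113 and 110 CPM (log2 fold change −2.25, SE 0.15) and Elavl2 fell by 0.72 on the log2 scale (SE 0.15), while Elavl3 rose by 0.81 (SE 0.16). Nova1 fell (−0.95, SE 0.18) and its paralogue Nova2 rose (0.77, SE 0.21). Elavl2 was not called without w1 (−0.47) or w2 (−0.61), nor Nova2 without w2 (0.60). The splicing factor Rbfox1 rose from 32.1, 95.5 and 144 CPM to 3455, 3336 and 3045 CPM (5.78, SE 0.24). Mir124a-1hg, a host gene of the neuronal microRNA miR-124, rose from 6.01, 27.7 and 13.1 CPM to 138, 182 and 130 CPM. Elavl3, Nova1 and Nova2 were named after their values had been seen.

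The functions gained were those of neuronal shape, contact and excitability. Among microtubule and cytoskeleton genes 28 of 51 tested members rose and 4 fell (61 listed; median log2 fold change 0.73), the latter 1 without w2. Ank3, the ankyrin that organises the axon initial segment, rose from 70.1, 70.9 and 39.3 CPM to 3459, 3111 and 3242 CPM (5.80, SE 0.20). Dcx, the microtubule protein of migrating neuroblasts, rose from 248, 139 and 105 CPM to 481, 411 and 484 CPM (1.49, SE 0.18), and Stmn2 from 28.1, 21.6 and 39.3 CPM to 193, 218 and 197 CPM. Map2 had a log2 fold change of 0.01 (SE 0.14, adjusted p = 0.97, edgeR). Among neuronal kinesins and transport adaptors 13 of 30 rose and 2 fell, including Kif5c, a motor of axonal transport, which rose by 1.92 on the log2 scale (SE 0.17).

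Axon guidance genes changed in both directions, also within families, with 21 of 42 tested members higher and 10 lower (69 listed, median 0.78). These shares were 50% and 23.8%, against 17.9% and 19.0% of all genes tested, so the share that fell was near that base. Plxna4, a semaphorin receptor, rose from 38.1, 58.5 and 52.4 CPM to 1901, 1526 and 1714 CPM (log2 fold change 5.36, SE 0.21), and Sema5a from 20, 43.1 and 39.3 CPM to 1767, 1542 and 1351 CPM (5.91, SE 0.24). In the Slit and Robo system, the receptor Robo2 fell from 1014, 647 and 1298 CPM to 217, 138 and 226 CPM (−2.12, SE 0.14) while Robo1 rose by 0.78 (SE 0.17). The ligands moved apart in the same way: Slit1 fell by 3.28 (SE 0.33) and Slit2 by 1.26 (SE 0.17), whereas Slit3 went from 0, 6.16 and 13.1 CPM to 479, 429 and 361 CPM, a pooled ratio of 137 on 3 NPC UMIs (95% counting interval 46.7 to 663). Slit1 and Slit2 were named after their values had been seen. The netrin receptor Dcc was at 6190, 2874 and 2897 CPM in NPC and 6969, 6068 and 5749 CPM in NB1 (0.91, SE 0.15), with its smallest difference in w1.

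Adhesion molecules followed, with 18 of 39 tested immunoglobulin-type members higher and 6 lower, 9 of 22 cadherins and protocadherins higher and 5 lower, and 23 of 40 trans-synaptic organisers higher and 7 lower. The shares higher were 46.2%, 40.9% and 57.5%, against 17.9% of all genes tested. Those lower, 15.4%, 22.7% and 17.5%, were near the 19.0% of all genes tested. Without w4, where 12297 genes were tested rather than 7827, the immunoglobulin-type members that fell were 10. Cntnap5a, of the Caspr family, rose from 26.1, 30.8 and 65.5 CPM to 1986, 1885 and 1824 CPM (log2 fold change 6.09, SE 0.23), and Pcdh7 from 18, 6.16 and 26.2 CPM to 885, 816 and 728 CPM. Tenm2, a teneurin of synaptic partner recognition, rose from 18, 43.1 and 52.4 CPM to 1226, 1596 and 1037 CPM (5.62, SE 0.23). Igsf11 fell from 349, 213 and 223 CPM to 9.9, 7.83 and 6.72 CPM. Dscam had a log2 fold change of 0.07 (SE 0.16, adjusted p = 0.77, edgeR).

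Parts of the synapse rose at this early stage. Of 49 tested presynaptic release genes 30 rose and 3 fell (69 listed; median log2 fold change 1.26). Syt1, the calcium sensor of vesicle fusion, rose from 22, 55.5 and 118 CPM to 642, 685 and 679 CPM (4.07, SE 0.25), and Snap25, a fusion protein, from 200, 259 and 236 CPM to 628, 614 and 636 CPM (1.63, SE 0.16). Sv2c went against the list, from 232, 265 and 183 CPM to 20.3, 11.7 and 26.9 CPM (−3.63, SE 0.23). Of 47 postsynaptic scaffolds and kinases 23 rose (48.9%) and 9 fell (19.1%, near the 19.0% of all genes tested). Camk2b rose from 32.1, 46.2 and 26.2 CPM to 256, 281 and 222 CPM, and Camk2a, the kinase of mature excitatory synapses, had a log2 fold change of −0.60 (SE 0.27, adjusted p = 0.071, edgeR).

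Glutamate receptors rose in 12 of 17 tested genes and fell in 3 (26 listed; median 1.78). Grin1, the obligatory NMDA receptor subunit, went from 4.01, 15.4 and 26.2 CPM to 162, 192 and 166 CPM (log2 fold change 4.26, SE 0.34), Grin2b from 321, 447 and 419 CPM to 1548, 1636 and 1494 CPM (2.20, SE 0.15) and the AMPA receptor subunit Gria2 from 1052, 909 and 1166 CPM to 3160, 3046 and 3110 CPM (1.78, SE 0.14). Grm3 fell from 299, 259 and 328 CPM to 42.3, 34 and 20.2 CPM, and Grin3a from 52.1, 21.6 and 65.5 CPM to 4.71, 5.38 and 2.24 CPM. GABA and glycine receptor genes rose in 10 of 16 and fell in 4 (27 listed; median 1.67), the latter in 2 without w1. Gabra2 rose from 42.1, 21.6 and 52.4 CPM to 593, 532 and 484 CPM (4.15, SE 0.23), while Gabrb1 fell by 0.75 (SE 0.16). Grm3, Grin3a and Gabrb1 were named after their values had been seen. The chloride importer Slc12a2 had a log2 fold change of 0.58 (SE 0.23, adjusted p = 0.047, edgeR), below the fold threshold, and the exporter Slc12a5 was too sparse to be tested, at 12, 12.3 and 0 CPM in NPC and 2.99, 5.14 and 11.2 CPM in NB1.

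The sums of both receptor lists were lower in NPC than in RGL and NB1. The GABA and glycine list summed to 7082, 5484 and 5779 CPM in RGL, 1319, 1460 and 1350 CPM in NPC and 2536, 2800 and 2677 CPM in NB1, and the glutamate list to 6453, 5700 and 6056 CPM, 3739, 3358 and 3919 CPM, and 10212, 10031 and 9841 CPM. The RGL sum of the former was largely Gabrb1, which stood at 4420 CPM in the pooled RGL nuclei, 253 CPM in NPC and 137 CPM in NB1, and all 4 genes of that list that fell were higher in RGL than in NPC. Of the receptor genes that rose, 8 of 12 for glutamate and 7 of 10 for GABA and glycine were higher in RGL than in NPC, against 674 of all 1403 genes that rose (48.0%).

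**Figure D4:**
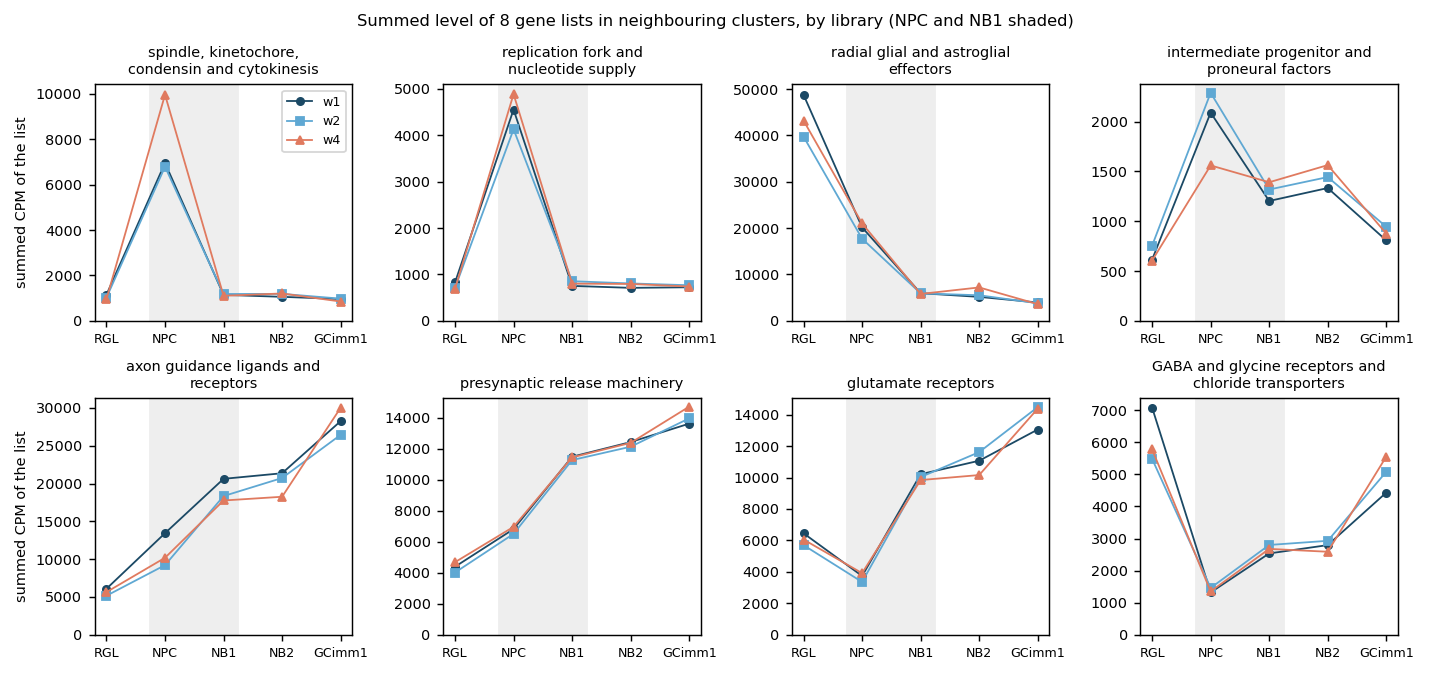
Summed level of 8 gene lists (CPM, one panel each with its own axis) in the RGL, NPC, NB1, NB2 and GCimm1 sums of libraries w1, w2 and w4; grey shading marks NPC and NB1. Spindle and fork genes peak in NPC, radial glial effectors fall stepwise, and the GABA and glycine list is lowest in NPC at 1319 to 1460 CPM.

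Ion channel genes, which set the excitability of the membrane, rose in large part. Of 30 tested sodium, calcium and cation channel genes 24 rose and 3 fell (50 listed; median log2 fold change 1.83), and of 29 potassium channel genes 19 rose and 4 fell (60 listed; median 1.69). Cacna1c, an L-type calcium channel, rose from 112, 102 and 91.7 CPM to 1464, 1279 and 1302 CPM (3.87, SE 0.18), and Scn3a, an embryonic sodium channel, from 2, 6.16 and 0 CPM to 125, 124 and 98.6 CPM, a pooled ratio of 37 on 3 NPC UMIs (95% counting interval 12.6 to 180). Kcnma1, the large-conductance potassium channel, rose from 28.1, 18.5 and 13.1 CPM to 263, 313 and 302 CPM, whereas Kcnj10, the glial potassium channel Kir4.1, fell from 58.1, 70.9 and 118 CPM to 3.93, 4.65 and 4.48 CPM. Among second messenger enzymes and G-protein regulators 36 of 59 rose (61%) and 10 fell (16.9%, near the 19.0% of all genes tested). Rgs6 rose from 0, 9.24 and 13.1 CPM to 569, 597 and 567 CPM (7.16, SE 0.35) and Slc8a1, a sodium-calcium exchanger, from 70.1, 92.4 and 26.2 CPM to 862, 790 and 833 CPM.

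Fewer members of these lists passed with limma on the mean log2 expression per nucleus, a scale unlike that of the summed counts. Limma called 5 presynaptic, 4 glutamate receptor, 1 GABA and glycine receptor, 5 sodium, calcium and cation channel, 3 potassium channel, 5 second messenger, 5 axon guidance, 5 microtubule and 2 trans-synaptic members higher. After thinning of nuclei to 2000 UMIs, 5155 genes were tested rather than 7827. There 27 presynaptic, 11 glutamate receptor and 18 sodium, calcium and cation channel members were higher.

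A set of genes had no UMI in any NPC sum and was present in every NB1 sum. With a floor of 3 UMIs over the pooled NPC nuclei, Fam163a (114, 124 and 128 CPM in NB1) was at least 35.5-fold higher, Zmat4 (91.3, 89 and 78.4 CPM) at least 27.0-fold, Jakmip3 (71, 93.7 and 101 CPM) at least 24.2-fold and Insc (71.2, 75.1 and 82.9 CPM) at least 21.9-fold. Insc encodes inscuteable, an adaptor of spindle orientation known from asymmetrically dividing cells, and appeared here on the side without division. The antisense RNA Plxna4os3 (115, 68.7 and 82.9 CPM; at least 28.9-fold) lies inside Plxna4 on the opposite strand. Its reads and those of Plxna4 are told apart only if counting used the strand, the default of the aligner.

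Few ribosomal protein and respiratory chain genes passed the test. Of 65 tested cytosolic ribosomal protein genes 1 rose and 2 fell, and of 50 nuclear-encoded respiratory chain genes 2 rose and 1 fell. The ribosomal list summed to 2417, 3632 and 3447 CPM in NPC and 2167, 3265 and 3235 CPM in NB1, with a difference between libraries larger than that between clusters. Of 36 tested ribosome biogenesis and translation genes 6 fell (16.7%, near the 19.0% of all genes tested) and 1 rose. None of that list was called without w1, and 2 were lower without w2. In glycolysis 4 of 17 genes rose and 1 fell, and in fatty acid and sterol synthesis 4 of 24 rose (16.7%) and 5 fell (20.8%), the latter list near the 17.9% and 19.0% of all genes tested. Both counts of genes that rose were smaller without w1 (2 and 1) and without w2 (2 and 2). The fatty acid and sterol genes that fell were 3 without w1 or w2 and 8 without w4, where 12297 genes were tested rather than 7827.

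Within the clusters the exchange followed an order along the deposited pseudo-time, which had been fitted on the same expression values and is given as a description. The NPC nuclei were cut into bins of 52, 52, 52 and 53 nuclei and the NB1 nuclei into bins of 645, 644, 644 and 645. Egfr stood at 1334, 1460, 603 and 103 CPM over the NPC bins. The clusters overlapped in pseudo-time, since the first NB1 bin began at 3.18 and the last NPC bin ended at 9.18. Top2a was at 234, 552, 594 and 459 CPM over the NPC bins and at 1.46 CPM in the first NB1 bin. Eomes rose over NPC from 102 to 333 CPM and was at 109, 24.7, 6.91 and 1.46 CPM over NB1.

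Neuronal genes came in at different points. Igfbpl1 and Dcx were highest in the first NB1 bin, at 1057 and 551 CPM, and Dcc in the last NPC bin, at 9845 CPM. Prox1 was level over NPC (320, 274, 308 and 319 CPM) and was at 414, 1000, 1101 and 955 CPM over NB1. Grin2b was at 708 and 506 CPM in the first NPC bins, 143 and 126 CPM in the later ones and 2040 CPM at the end of NB1. Syt1 (139, 430, 821 and 1240 CPM) and Tenm2 (180, 456, 1613 and 3153 CPM) were still rising across NB1.

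**Figure D5:**
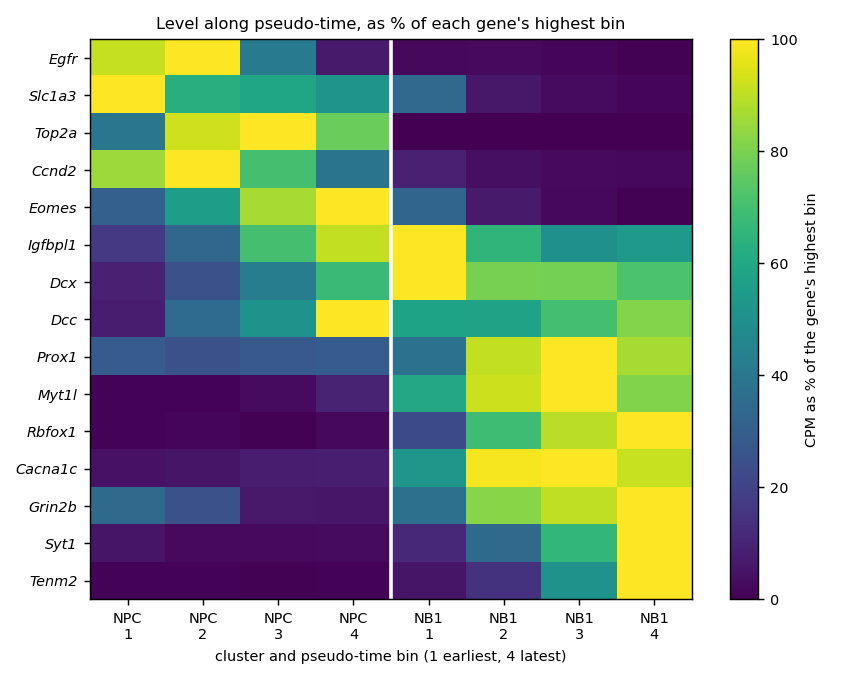
Level of 15 genes in pseudo-time bins of the NPC and NB1 nuclei (columns, 1 earliest and 4 latest; the white line separates the clusters), coloured as % of each gene's highest bin. Egfr is low by the last NPC bin, Eomes is highest there, Igfbpl1 and Dcx are highest in the first NB1 bin, and Syt1 and Tenm2 in the last.

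The genes that fell and rose differed in how they related to the stages on either side. Of the 1486 that fell, 1123 (75.6%) were higher in NPC than in RGL, 678 of them by at least 1.5-fold in each library, and 133 (8.95%) were higher in RGL by that margin. GCimm1 was at or below NB1 for 1045 of them (70.3%) and above NPC for 12. Of the 1403 that rose, 1348 (96.1%) were also higher in GCimm1 than in NPC, and 712 (50.7%) were higher in GCimm1 than in NB1. These stages share the NPC and NB1 sums with the comparison and were not tested.

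Gene length differed with the calls. Median length was 69.3 kb for genes that rose, 50.1 kb for genes that fell and 33.5 kb for genes not called, and 40.2%, 29.4% and 15.4% of them were longer than 100 kb. Among the longest genes tested, those of 90.9 kb or more, 30.6% rose and 23.9% fell, and among the shortest, up to 19.1 kb, 12.2% and 14.6%, so that lists rich in long genes have a higher base than 17.9% and 19.0%. Nuclear RNA was counted over exons and introns, so long genes collect more UMIs, and the part of length in these calls was not tested.

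Levels of marker genes are set beside the cluster labels as a description. The study had named NPC and the neuroblasts by many of the same genes in these nuclei. The directions of the NPC and neuroblast markers are therefore no independent check of the labels. The 9 NPC markers in the files, all tested, were all lower in NB1, summing to 3954, 3152 and 4011 CPM in NPC and 357, 309 and 388 CPM in NB1, and 7 of 9 tested neuroblast markers were higher, with Elavl2 and Draxin lower. Draxin was not called without w4 (−0.56). RGL markers summed to 2186, 2224 and 2385 CPM in NPC and 382, 291 and 336 CPM in NB1 (5 of 5 tested lower) and astrocyte markers to 1150, 1168 and 1678 CPM and 511, 508 and 488 CPM (4 of 5 lower), moving with the stem cell and radial glial lists. Markers of mature granule cells summed to 124, 240 and 288 CPM in NPC and 2107, 1816 and 2057 CPM in NB1 (4 of 5 tested higher). That NB1 sum was mostly Plxna4, whose levels are given above. In the pooled nuclei 7 of the 10 were higher in NB1, while Camk2a (56.7 to 31.4 CPM) and Calb1 (12.2 to 6.15 CPM) were lower. Markers of mossy and pyramidal cells, the other glutamatergic neurons of the region, summed to 190, 293 and 144 CPM in NPC and 813, 911 and 961 CPM in NB1 (3 of 4 higher). Both sums moved with the synaptic, receptor and channel genes. Oligodendrocyte markers summed to 13.1 to 126 CPM in NPC and 126 to 152 CPM in NB1, against 17613 CPM in the oligodendrocyte cluster, and microglial markers to 49.3 to 56.1 and 47.5 to 164 CPM. Markers of oligodendrocyte precursors summed to 18.5 to 39.3 CPM in NPC and 173 to 288 CPM in NB1 (1 tested and higher). Of these precursor markers 3 of 10 were higher in the pooled NB1 nuclei. Their NB1 sum was largely Tnr, and no other member held more than 19 UMIs there. Pericyte and leptomeningeal markers summed to 37.0 to 52.4 CPM in NPC and 4.48 to 9.05 CPM in NB1 (1 tested and lower). The part of these cell types in the results was not tested. Endothelial markers summed to 212 CPM in the w1 NPC sum and to 16.9 to 26.2 CPM in the other 5 sums. A single w1 NPC nucleus held 95 endothelial marker UMIs, with at most 3 in any other NPC or NB1 nucleus. Without it 2889 genes were called, 2859 of them shared.

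Interneuron markers summed to 78.6 to 196 CPM in NPC and 65.4 to 134 CPM in NB1, with 2 of 3 tested members lower and 1 higher. The member that was higher was Gad1, at 4.01, 3.08 and 0 CPM in NPC and 35.2, 48.7 and 47.1 CPM in NB1. The log2 fold change of Gad1 was 3.77 (SE 0.55), and its pooled ratio of 12.2 rests on 3 NPC UMIs (counting interval 4.15 to 59.5). Dlx1, a factor of GABAergic interneurons, was at 90.2, 30.8 and 39.3 CPM in NPC and 3.14, 3.67 and 2.24 CPM in NB1 (log2 fold change −4.02, SE 0.41), and was found in 16 of 209 NPC nuclei (7.66%) and 18 of 2578 NB1 nuclei (0.698%). Those nuclei held 648 of 842 NPC UMIs of Nrxn3 (77.0%) and 2898 of 4671 NB1 UMIs (62.0%). Nrxn3, a neurexin, fell with all nuclei included (log2 fold change −1.17, SE 0.16) and had −0.26 without them (adjusted p = 0.48, edgeR), so this call rests on these nuclei. Without them 2729 genes were called, 1290 higher and 1439 lower, 2620 of them shared. Of 106 named genes with a value in that fit, 4 lost their call, Nrxn3 among them.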

How the data were processed

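Nuclei of the dentate gyrus were sequenced with the 10x Genomics 3′ chemistry. Per the labels and the study's methods, the authors aligned reads to mm10 with STARsolo 2.7.4a, counting UMIs over exons and introns without multimapping reads, with default parameters for UMI counting, which in this tool use the strand, although the setting itself is not named. They deposited raw counts per feature and nucleus, and a log2 table (counts over scran size factors, log2 after adding 1) with cluster and pseudo-time of each nucleus, from which they had removed doublets, nuclei with few features or much mitochondrial RNA, and sex and stress genes. They had also left out a group of w4 nuclei as a possible outlier animal, so the w4 sums hold only part of that library.

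Barcodes of the deposited log2 table were matched to the raw counts, and counts were summed per library and cluster with at least 10 nuclei, giving 6 sums. Some genes that overlap another annotated gene, such as Sox2, Neurod1 and Tubb3, had no UMI in any cluster. Others, such as Gabra4 and Gabrb1, which overlap on opposite strands, kept their counts. edgeR 4.0.16 in R 4.3.3 (TMM factors, filterByExpr, quasi-likelihood F test, library and cluster as terms) was fitted over all features. Adjusted p-values are Benjamini-Hochberg values over the 7827 genes tested. Calls needed an adjusted p no higher than 0.05 together with a 1.5-fold difference or more. No labels give replicates within a time, so the p-values weigh the difference between clusters against its variation over 3 pools. That variation had 2 residual degrees of freedom per gene. The fit moderated it with information shared across genes, at a median of 25.4 prior degrees of freedom. Both sums of a library came from the same pool, which is the source of the pairing, and their deviations from the cluster means correlated with r = 0.20 in w1, 0.12 in w2 and 0.05 in w4.

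The named genes are the 15 largest changes in each direction with at least 50 UMIs, the 5 largest and the first 6 members of each gene list, and the cell type markers; others are said to have been named after their values were seen. The members and lists were chosen with earlier results of these data known. Alternatives were DESeq2 1.42.0, RLE factors, no filter, 1 fit of all trajectory clusters and astrocytes, no library term, each library left out, thinning, a fold change of 2 and limma 3.58.1 on mean log2 values. Leaving out the nuclei with endothelial or Dlx1 UMIs was added after seeing the data. Intervals cover counting error only. Some genes are not reported here.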

Additional observations from a re-analysis of the deposited data

Results flagged for a closer look

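Among the genes named with the lists, Plcb1, a phospholipase of receptor signalling, moved in opposite directions in w1 and w4. Its log2 ratio of NB1 over NPC was 0.254 in w1 and −0.414 in w4, with 1311 and 1563 CPM in the w1 sums, 1014 and 1051 CPM in w2, and 1848 and 1387 CPM in w4. The gene was not called over the 3 libraries. The difference between w1 and w4 was not tested, since each time holds 1 sum per cluster.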

How the results depend on the processing

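Against the 2889 genes called of 7827 tested, 1913 of 5155 were called with nuclei of at least 2000 UMIs thinned to 2000 (964 lower, 1762 shared). At a fold change of 2 there were 984 lower. With limma on mean log2 expression per nucleus 260 were called (137 higher and 123 lower, 245 shared). The 1.5-fold threshold was applied there to a scale unlike that of the summed counts. The cause of the limma difference was not tested. With limma, 42 of the 81 named genes with a value lost their call and none reversed. Leaving out each library gave 2043 to 3784 genes changed, 967 to 1795 higher and 1042 to 1989 lower. The genes tested were 7516 without w1, 7887 without w2 and 12297 without w4. Without the library term, that is without the replicate block, 2698 genes were called, 2684 of them shared, 1299 higher and 1399 lower, so the pairing changed few calls. DESeq2 called 1995 genes, 1988 of them shared. With no filter 3581 genes were called, 2027 higher and 1554 lower, and the median log2 fold change over the 22279 genes was 0.40, against 0.01 over the genes tested. With the NB1 sums thinned to the NPC totals 2161 genes were called (2033 shared), and 1 fit of all trajectory clusters and astrocytes called 3964, 1986 higher and 1978 lower (2717 shared). RLE factors gave 1485 higher and 1421 lower. No gene called in both fits changed sign under any of these alternatives. The w4 NPC sum, with 22 nuclei, limits genes of low level.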

Other observations

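The 2 NPC nuclei of w8, which entered no comparison, held 13481 UMIs. Their NPC markers summed to 148 CPM (95% exact counting interval 18 to 536), their RGL markers to 371 CPM (120 to 866) and their neuroblast markers to 816 CPM (407 to 1460).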
